A study of Mus musculus with 24 samples.

Results

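The effect of a rigid microenvironment on microRNA levels was measured in mouse mammary carcinoma cells whose TGF-beta type I receptor was inhibited. The members are the 12 arrays whose titles carry the word basal, the submitters' term for the receptor inhibitor, out of 24 arrays in the series. They comprise 6 arrays of rigid and 6 of compliant culture, 2 of each from the lines 67NR, 4TO7 and 4T1. These are sister lines that the labels call nonmetastatic, systemically invasive and highly metastatic, in that order. All had been kept in 3D organotypic culture for 6 days. Cells of all 12 arrays received the inhibitor, and the other 12 arrays hold the same lines and microenvironments with TGF-beta added, so that no array holds cells free of both agents. The labels do not name the inhibitor, its dose or the means by which rigidity was set. The question was which miRNAs differ between rigid and compliant culture when signalling through this receptor is blocked.

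A miRNA is a short RNA that guides a silencing complex to messenger RNAs, mainly by pairing of its seed, bases 2 to 8 from the 5′ end, so miRNAs with one seed share many predicted targets. Mammary tumours stiffen as collagen is deposited and crosslinked, and cells sense this through integrins, focal adhesions and the YAP and TAZ coactivators. TGF-beta is stored in the matrix in a latent form that traction by cells can release, so matrix rigidity and TGF-beta signalling are linked in many tissues.

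Mature sequences are shown for the miRNAs on which the results turn, together with relatives of the same seed, because the relatives did not all pass the test. They come from RefSeq for build GRCm38.p6, in which 15 of the 18 miRNAs called below could be matched by name and arm. The seed is in capitals. The first set fell in rigid culture or is related to a miRNA that fell.

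miR-149: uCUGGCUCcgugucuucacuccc
miR-146a: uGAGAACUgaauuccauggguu
miR-146b: uGAGAACUgaauuccauaggcu
miR-9: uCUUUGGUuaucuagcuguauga
miR-99a: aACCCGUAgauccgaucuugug
miR-100: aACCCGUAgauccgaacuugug
miR-99b: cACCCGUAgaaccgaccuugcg
miR-205: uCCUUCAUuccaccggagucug
miR-181b: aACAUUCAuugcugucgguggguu
miR-181a: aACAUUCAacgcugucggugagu

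MiR-149 lies at chr1:92850381-92850403 on the plus strand, within the protein-coding gene Gpc1. MiR-146a (chr11:43374435-43374456, minus strand, outside any other annotated gene) and miR-146b (chr19:46342790-46342811, plus strand, within the long non-coding RNA Gm36493) come from different chromosomes and have the same seed. MiR-9 is encoded at 3 loci that give the same mature sequence. MiR-99a (chr16:77598940-77598961, plus strand), miR-100 and miR-99b share 1 seed, and so do miR-181b and miR-181a. MiR-205 lies at chr1:193507503-193507524 on the minus strand, within its host RNA Mir205hg. The second set rose in rigid culture, with miR-17 as a relative of miR-20b.

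miR-218-2*: cAUGGUUCugucaagcaccgcg
miR-706: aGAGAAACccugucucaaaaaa
miR-708: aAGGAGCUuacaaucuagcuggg
miR-20b: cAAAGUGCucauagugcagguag
miR-17: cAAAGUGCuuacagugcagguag
miR-330*: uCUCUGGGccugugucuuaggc

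MiR-218-2*, the passenger strand of one miR-218 hairpin, lies at chr11:35616882-35616903 on the plus strand, within Slit3. MiR-706 (chr6:120034290-120034311, minus strand) lies within Wnk1, miR-708 (chr7:96249450-96249472, plus strand) within Tenm4, and miR-330* (chr7:19181486-19181507, plus strand) within Eml2. MiR-20b (chrX:52742159-52742181, minus strand) and miR-17 have the same seed and are made from separate clusters.

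Levels below are log2 relative intensities, the sample dye over a synthetic reference on the same spot, normalized between arrays, and differences are rigid minus compliant on that log2 scale with their standard error (SE). Between 319 and 357 of 558 miRNA probes were detected per inhibitor array, 322 to 350 on the rigid and 319 to 357 on the compliant ones, and 362 were tested. The number of arrays limits the precision. Across probes, r between the 2 arrays of each group was 0.995 to 0.998. The 2 arrays are called set 1 and set 2, and no label states that they hold separate cultures; the p-values therefore reflect the spread between arrays, which may be technical. In bulk RNA, fewer cells with a miRNA and less of it per cell cannot be told apart. The arrays lay on 5 slides that were not balanced: slide 4 held 3 rigid and no compliant inhibitor array, slide 1 held 2 compliant and no rigid one. In 67NR and in 4TO7 no slide held both rigid and compliant inhibitor arrays. Within these lines rigidity and slide cannot be told apart from the inhibitor arrays alone, and any estimate that allows for slide draws on other groups of arrays. Therefore a fit of all 24 arrays with slide as a block is quoted where it ends a call, along with the difference in the only rigid and compliant arrays of 1 line on 1 slide, a 4T1 pair on slide 2; both of its arrays also enter the test, so it is no independent check.

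With the receptor inhibited, miR-149, miR-146a, miR-146b, miR-9 and miR-99a were lower in rigid than in compliant culture, each by 0.18 to 0.30 on average over the lines. MiR-218-2* and miR-706 were higher by 0.38 and 0.28. Of those that fell, miR-9 and miR-99a were detected on all 12 arrays. MiR-146a was detected in 4T1 alone, and miR-146b and miR-149 on all 4 arrays of a line only in 4T1, so the means of these take in values read at background. In all, 18 of 362 miRNAs passed an adjusted p of 0.05 in limma (4.97%), 10 of them higher (2.76%) and 8 lower (2.21%). The effects were small: none reached 2-fold, and the largest, of miR-218-2*, was 1.30-fold. The same sign in all 3 lines was seen for 13 of the 18, and no share over all 362 is given for it. In 9 of the 18 the rigid and compliant arrays did not overlap in any line, against 17 of all 362 tested (4.7%). The 18 were chosen on the mean over the same lines, which favours both counts. Some of the 13, among them miR-146a, miR-20b and miR-377, were not detected in every line, so their sign there was read at background. Other scalings gave another split of higher and lower, namely 5 and 11 after median scaling on all tested probes, 4 and 15 after median scaling on the probes present on every array, and 7 and 6 in the authors' deposited table. With slide as a block 6 of 365 passed (1.64%), namely miR-149, miR-9, miR-205, miR-146b, miR-99a and miR-706, all among the 18. Without set 1 of compliant 67NR, or without set 1 of compliant 4TO7, 11 miRNAs passed. Of the 18, 11 passed in each of the 12 fits that left out 1 array, and 7 (miR-181b, miR-31*, miR-214, miR-377, miR-708, miR-742 and miR-805) failed in 7 to 10 of these fits, with a highest adjusted p between 0.073 and 0.14.

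**Figure D1:**
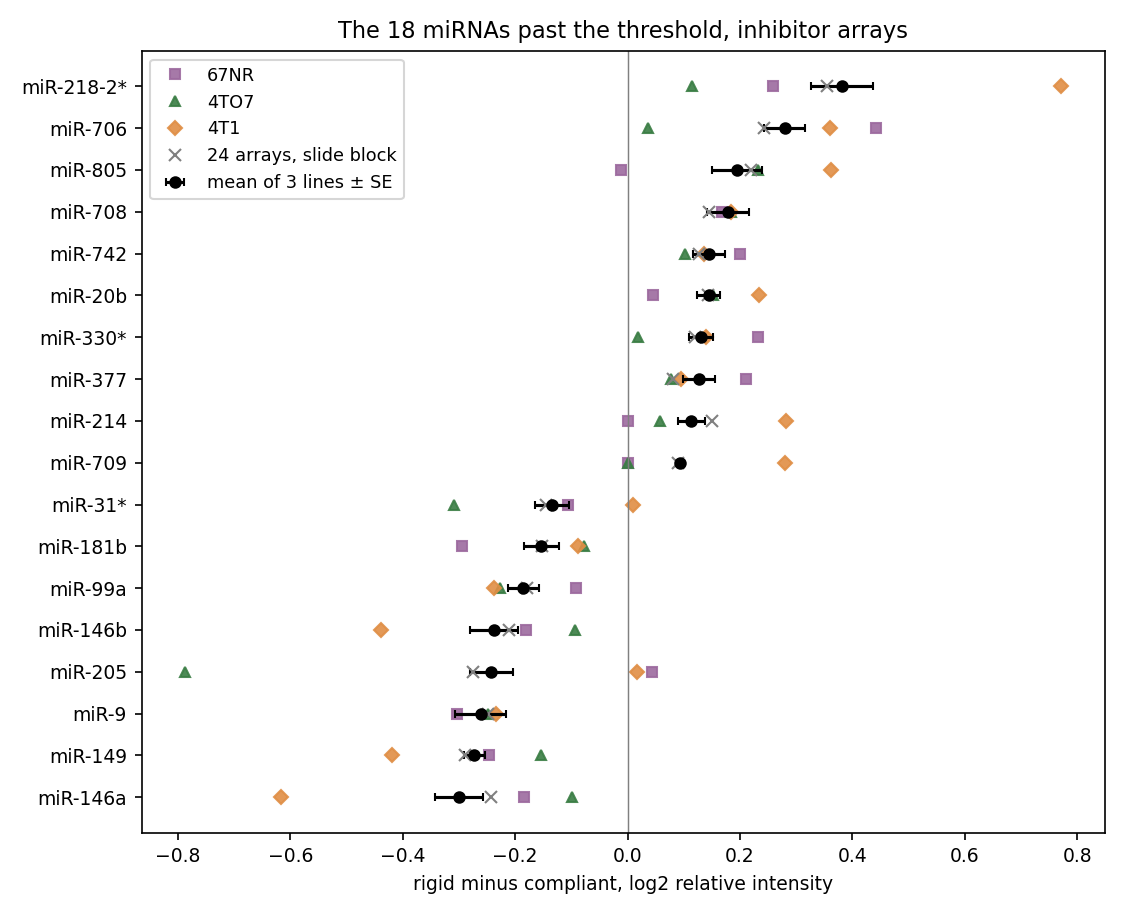
Rigid minus compliant difference in log2 relative intensity on the inhibitor arrays for the 18 miRNAs with an adjusted p under 0.05, from the highest at the top to the lowest. Black points are means of 3 lines with their SE, coloured symbols the single lines (2 arrays against 2), and grey crosses the estimate with slide as a block; miR-205 differs in 4TO7 and is near 0 in the other lines, while miR-9 lies between -0.23 and -0.30 in each.

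MiR-149, reported as a tumour suppressor in several carcinomas, had the smallest p of the falling miRNAs. In 67NR it was at 7.43 and 7.39 in compliant and 7.14 and 7.18 in rigid culture. In 4TO7 the compliant arrays read 7.57 and 7.57 and the rigid arrays 7.42 and 7.41, and in 4T1 they read 7.76 and 7.74 against 7.34 and 7.33. No rigid array reached a compliant array of its line. The mean difference was -0.27 ± 0.02 (limma adjusted p = 6.5e-05), made up of -0.25 in 67NR, -0.15 in 4TO7 and -0.42 in 4T1. Only in 4T1 was miR-149 above background on all 4 arrays; it was detected on 1 of the 2 compliant arrays of 67NR, both of 4TO7, and on no rigid array of these lines. MiR-149 was read 1.19-fold lower in rigid 67NR, which is no lower bound because 1 compliant array was also at background. In rigid 4TO7, with both compliant arrays detected, it was at least 1.11-fold lower, and the fold measured in 4T1 was 0.748. The slide 2 pair of 4T1 gave -0.44.

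MiR-146a and miR-146b, which share a seed and dampen inflammatory NF-kappa-B signalling through TRAF6 and IRAK1, also fell. In 4T1, where miR-146a was detected on all 4 arrays, it was at 7.86 and 7.89 in compliant and 7.30 and 7.22 in rigid culture. MiR-146b read 6.82 and 6.88 against 6.40 and 6.42 in the same cultures. For both, the rigid 4T1 arrays lay well under the compliant ones. The 4T1 differences were -0.62 ± 0.07 for miR-146a (limma adjusted p = 0.0026) and -0.44 ± 0.07 for miR-146b (adjusted p = 0.012), or 0.652 and 0.737 of the compliant level. MiR-146a was not detected in 67NR or 4TO7, and miR-146b in these lines only on 1 compliant 4TO7 array, so the means over 3 lines, -0.30 ± 0.04 (adjusted p = 0.0055) and -0.24 ± 0.04 (adjusted p = 0.014), average a measured difference with others read at background. With slide as a block the mean difference of miR-146a was -0.24 and no longer passed (adjusted p = 0.063), and in the slide 2 pair of 4T1 the differences were -0.64 and -0.39. The 4T1 fall of miR-146a passed without any 1 of the 12 arrays; that of miR-146b failed without compliant set 2 or either rigid 4T1 array, with a highest adjusted p of 0.10.

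MiR-9, known for its role in neural development and as a repressor of E-cadherin in breast cancer cells, fell by a similar amount in the 3 lines and was detected on all 12 arrays. Its levels in 67NR were 7.48 and 7.28 in compliant and 7.16 and 7.0 in rigid culture. In 4TO7 they were 8.39 and 8.39 against 8.18 and 8.11, and in 4T1 8.97 and 9.01 against 8.82 and 8.70. The groups did not overlap in any line. The mean difference was -0.26 ± 0.05 (limma adjusted p = 0.012), or 0.834 of the compliant level. The test passed without any 1 array and in all 13 other alternatives, among them the slide block (-0.25, adjusted p = 0.017). In no single line did it pass, with adjusted p between 0.057 and 0.36.

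MiR-99a, which with miR-100 is known to repress mTOR, was detected everywhere too. Compliant and rigid arrays read 7.45 and 7.45 against 7.38 and 7.33 in 67NR, 8.21 and 8.15 against 8.0 and 7.91 in 4TO7, and 8.04 and 8.06 against 7.87 and 7.76 in 4T1. Again no rigid array overlapped the compliant ones of its line. The difference was -0.19 ± 0.03 (limma adjusted p = 0.0062) and passed in all 12 fits without 1 array and in the 13 other alternatives. Its relatives of the same seed split: miR-100 was at -0.11 ± 0.03 and miR-99b at 0.12 ± 0.03, neither past the threshold (adjusted p = 0.086 and 0.068). Of the 5 tested members of the miR-99 and miR-125 group, 1 was lower and none higher, beside 8 lower and 10 higher of all 362 miRNAs. The median of the group was -0.08, beside 0.01 over all 362.

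The miR-181 family, with known targets in lymphocyte signalling and a known response to TGF-beta in mammary cells, lay below 0 in all 4 members, with a median of -0.11, and 1 of the 4 passed, beside 159 of 362 below 0 and 8 of 362 called lower among all tested. MiR-181b was at 7.70 and 7.65 in compliant against 7.40 and 7.36 in rigid 67NR, at 7.33 and 7.19 against 7.13 and 7.23 in 4TO7, and at 8.08 and 8.11 against 8.01 and 8.01 in 4T1. The groups overlapped in 4TO7 only. The mean difference was -0.15 ± 0.03 (limma adjusted p = 0.025); with slide as a block it was -0.15 and did not pass (adjusted p = 0.15). MiR-181a was at -0.13 ± 0.04 (adjusted p = 0.076).

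MiR-205, an epithelial miRNA that represses the transcription factors ZEB1 and ZEB2, passed in 4TO7 alone, and its effect differed between lines (F test in limma, adjusted p = 0.0037). It has no common sign in the lines, as miR-709, miR-805, miR-214 and miR-31* have none, and these 5 are described because they were called, after their values were seen. Compliant 4TO7 arrays read 7.76 and 7.67 and rigid ones 7.01 and 6.85; all 8 arrays of the other lines lay between 6.00 and 6.19. The probe was above background on the 2 compliant 4TO7 arrays alone, so that miR-205 was at least 1.73-fold lower in rigid 4TO7. It entered the test only through that group, where it is high. Its 4TO7 and F test results therefore describe that group and are no independent support. The 4TO7 difference was -0.79 ± 0.07 (limma adjusted p = 0.00054), and it lay between -0.87 and -0.70 with any 1 array left out. The mean of -0.24 over 3 lines (adjusted p = 0.0079) rests on that line. Both rigid 4TO7 arrays lay on slide 4 and neither compliant one did; with slide as a block the 4TO7 difference was -0.89 (adjusted p = 0.00029). The miR-200 family and miR-141, which act on ZEB1 and ZEB2 as well, did not pass, at -0.09 to 0.05 in the 3-line mean. MiR-200b, miR-200c and miR-429 were detected in 4T1 alone, so their means take in 67NR and 4TO7 read at background.

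MiR-31*, the passenger strand of the metastasis-linked miR-31, was the remaining fall, at -0.13 ± 0.03 (limma adjusted p = 0.039). It stood at 9.38 and 9.40 in compliant against 9.10 and 9.06 in rigid 4TO7, and at 9.19 and 9.24 against 9.19 and 9.26 in 4T1. The difference was -0.31 in 4TO7 and 0.01 in 4T1, and the F test between lines did not pass (adjusted p = 0.11). The call of miR-31* ended with the slide block (adjusted p = 0.20), and the slide 2 pair of 4T1 gave 0.07.

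**Figure D2:**
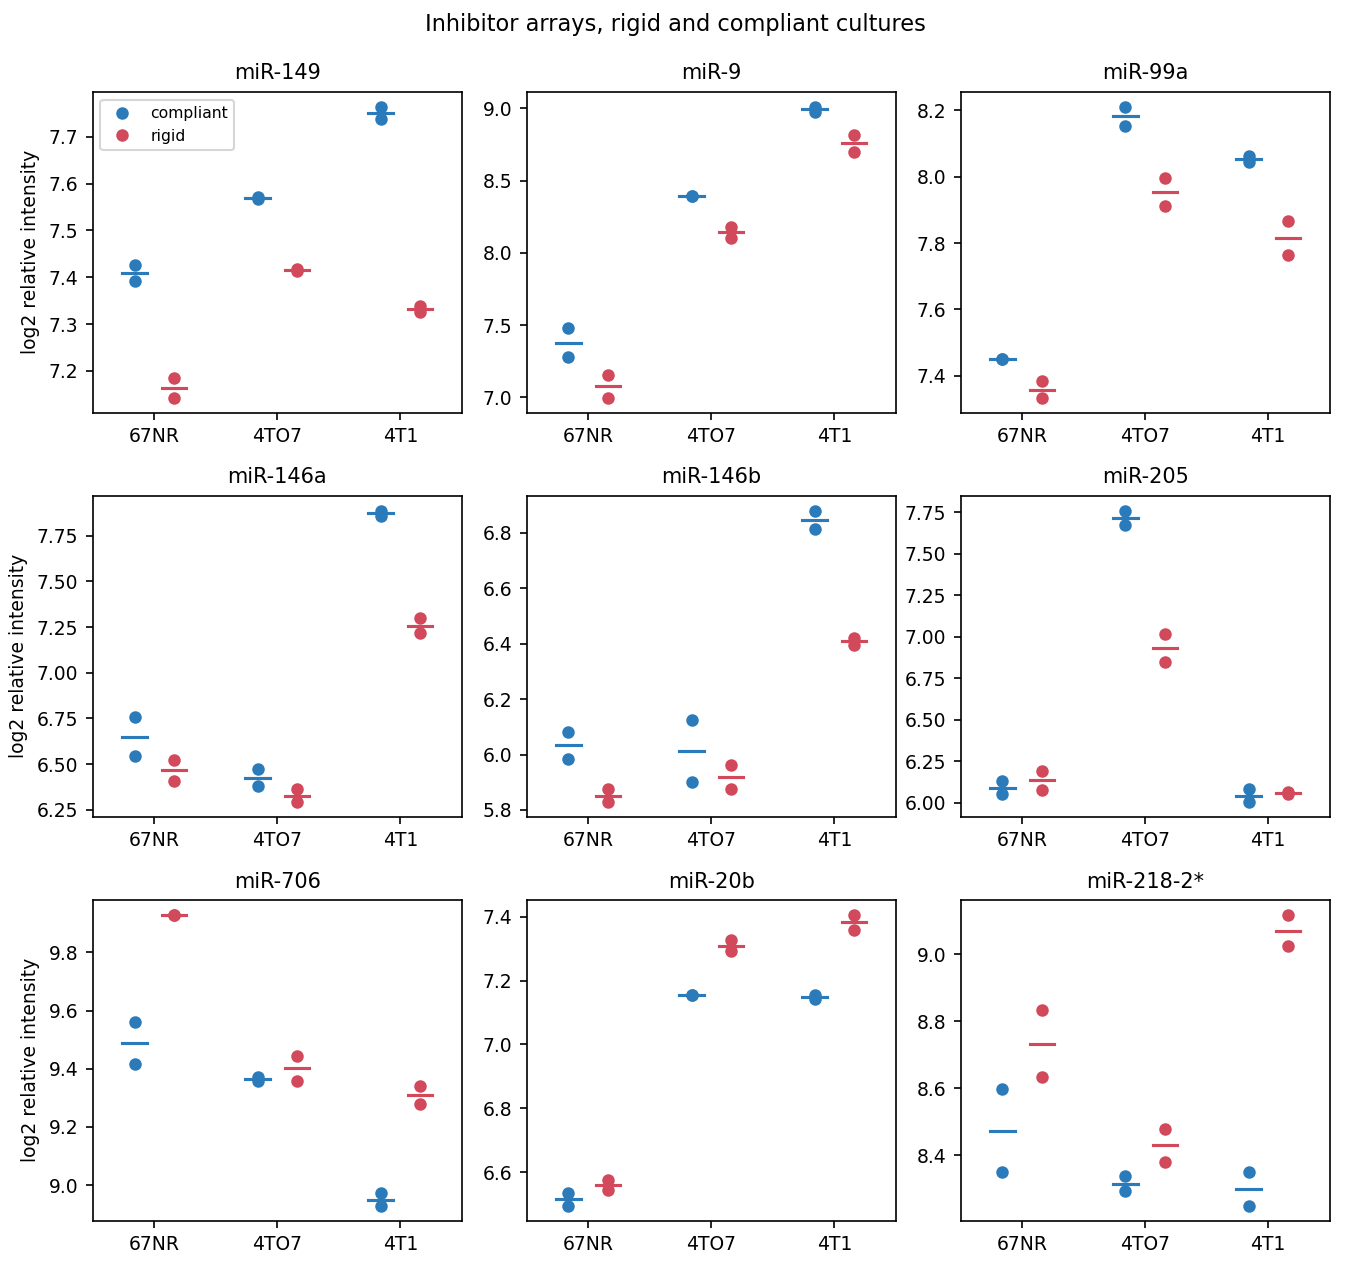
Log2 relative intensity of 9 miRNAs on the 12 inhibitor arrays, by line on the horizontal axis, with compliant cultures in blue and rigid cultures in red, points for single arrays and bars for the mean of 2. The vertical axes differ between panels and do not start at 0; rigid arrays of miR-149, miR-9 and miR-99a lie below compliant ones in each line, and miR-205 is above its level in the other lines only in 4TO7.

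Among miRNAs that rose, miR-218-2* moved most. Its host gene Slit3 encodes a secreted guidance ligand. The compliant arrays read 8.35 and 8.60 in 67NR, 8.34 and 8.29 in 4TO7, and 8.25 and 8.35 in 4T1. The rigid arrays read 8.83 and 8.63, 8.38 and 8.48, and 9.12 and 9.02 in the same order. Rigid values were above compliant ones in every line, most clearly in 4T1. The mean rise was 0.38 ± 0.06 (limma adjusted p = 0.0055), with 0.26, 0.11 and 0.77 in 67NR, 4TO7 and 4T1. The 4T1 rise, 1.71-fold, passed on its own (adjusted p = 0.0026), held without any 1 array and was 0.77 in the slide 2 pair. With slide as a block the mean rise was 0.36 (adjusted p = 0.098), which does not pass.

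MiR-706 was at 9.56 and 9.42 in compliant against 9.93 and 9.93 in rigid 67NR, and at 8.93 and 8.97 against 9.34 and 9.28 in 4T1. In 4TO7 the values 9.37 and 9.36 against 9.36 and 9.44 overlapped. The mean rise of 0.28 ± 0.04, or 1.21-fold, passed in limma (adjusted p = 0.0053), also with slide as a block (0.24, adjusted p = 0.017), and came from 67NR (0.44) and 4T1 (0.36), with 0.04 in 4TO7.

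MiR-20b, whose miR-17 seed targets the cell cycle brake p21, was read at 7.16 and 7.16 in compliant against 7.33 and 7.29 in rigid 4TO7. In 4T1 it read 7.16 and 7.14 against 7.36 and 7.41. It was not above background in 67NR. Rigid arrays lay above compliant ones throughout, by 0.14 ± 0.02 on average (limma adjusted p = 0.0055), but the call ended with slide as a block (0.14, adjusted p = 0.23) and after median scaling on the probes present on every array (adjusted p = 0.053). Of the 13 tested members of the miR-17 clusters it was the only one that passed, and the median of the 13 was -0.03, beside 18 of 362 called (4.97%) and a median of 0.01 over all tested. MiR-17, with the same seed, was at 0.03 ± 0.04.

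The other rises were smaller. MiR-708, reported to restrain metastasis of breast cancer cells, was at 6.59 and 6.63 against 6.76 and 6.79 in 67NR, at 6.21 and 6.17 against 6.28 and 6.47 in 4TO7, and at 6.20 and 6.08 against 6.34 and 6.31 in 4T1. No arrays overlapped, and the rise was 0.18 ± 0.04 (limma adjusted p = 0.031). MiR-742 rose by 0.15 ± 0.03 (adjusted p = 0.024) and miR-330* by 0.13 ± 0.02 (adjusted p = 0.0079). MiR-377, of the imprinted Dlk1-Dio3 locus, was detected only in rigid 67NR, at 6.50 and 6.59 against 6.31 and 6.36 in compliant 67NR, and was at least 1.16-fold higher there. It entered the test only through that group, as miR-205 did through compliant 4TO7. The calls of both over 3 lines, and those of miR-205 in 4TO7 and in the F test, are therefore descriptions of those groups. MiR-805 rose by 0.20 ± 0.04 (adjusted p = 0.039), with -0.01 in 67NR, 0.23 in 4TO7 and 0.36 in 4T1. With slide as a block none of these 5 passed, at adjusted p between 0.090 and 0.48. Under both median scalings miR-742, miR-330* and miR-377 were not called.

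The normalization gives probes of equal rank equal values, which set the values of miR-709 and those of miR-214 in 67NR. MiR-709 held the same value, 13.97, on 10 of the 12 arrays and 13.69 on both compliant 4T1 arrays. Its difference of 0.09 (limma adjusted p = 6.5e-05) is that single step, and it did not pass under median scaling (adjusted p = 0.72), in the authors' deposited table (adjusted p = 0.64) or with slide as a block (adjusted p = 0.61). MiR-214, a mesenchymal miRNA made from the host RNA Dnm3os, read 13.69 on all 4 arrays of 67NR. In 4T1 it read 12.71 and 12.66 in compliant against 12.92 and 13.01 in rigid culture. Its mean difference of 0.11 ± 0.02 (adjusted p = 0.031) did not pass with slide as a block (0.15, adjusted p = 0.15) or under median scaling.

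The 3 lines gave different lists. In 67NR 16 of 362 miRNAs passed (4.42%), 9 higher (2.49%) and 7 lower (1.93%), in 4T1 12 (3.31%), 7 higher (1.93%) and 5 lower (1.38%), and in 4TO7 1 (0.276%), miR-205, with 25 at an unadjusted p under 0.05 in limma. After median scaling on all tested probes, on the probes present on every array and in the authors' deposited table, the splits of higher and lower were 14 and 5, 12 and 10, and 10 and 10 in 67NR. In 4T1 they were 4 and 8, 4 and 6, and 4 and 5. Across the 362 miRNAs, differences in 67NR correlated with those in 4TO7 at r = 0.03 and with those in 4T1 at r = 0.18, and 4TO7 with 4T1 at r = 0.29. These points share the normalization and the slides, and miRNAs are not independent replicates. The F test for unequal rigidity effects between lines passed for 4 of 362 (1.1%): miR-709, miR-205 (adjusted p = 0.0037), miR-542-3p (adjusted p = 0.019) and miR-466c-5p (adjusted p = 0.032). MiR-149 and miR-466d-5p, which had the next smallest p, did not pass. The number was 9 without either compliant 4T1 array and 2 without rigid 4T1 set 2, 9 in the 24-array fit, and 16, 20 and 11 after the median scalings on all tested probes and on the probes present on every array, and in the authors' deposited table.

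In 67NR the rises with the largest differences were those of miR-574-5p, miR-466f-5p, miR-466h, miR-706 and miR-466d-5p, and the falls those of miR-208b, miR-181b, miR-542-3p, miR-181d and miR-149. MiR-574-5p, a GU-rich miRNA from an intron of Fam114a1, was at 10.76 and 10.65 in compliant and 11.38 and 11.52 in rigid 67NR. Its rise of 0.74 ± 0.14 was 1.67-fold (limma adjusted p = 0.022). All 8 values of the other lines lay between 10.81 and 11.27. MiR-466f-5p rose by 0.73 ± 0.15 and miR-466h by 0.70 ± 0.16. MiR-466d-5p, detected on 1 rigid 67NR array and no compliant one, was read 1.33-fold higher, which is no lower bound. MiR-208b, a cardiac and slow-muscle miRNA from an intron of a myosin gene, was at 8.33 and 8.37 against 7.86 and 7.84, a fall of 0.50 ± 0.11 (adjusted p = 0.034). MiR-542-3p fell by 0.26 ± 0.04 and miR-181d by 0.26 ± 0.05, beside 0.29 ± 0.05 for miR-181b. MiR-203, an epithelial differentiation miRNA, fell by 0.24 ± 0.05 (adjusted p = 0.040).

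These 67NR calls depend on single arrays and on the slide. Without 1 array of 67NR the count of 16 became 1 (compliant set 1), 2 (compliant set 2), 6 (rigid set 1) or 2 (rigid set 2); it was 9 without either rigid 4TO7 array and 10 without either rigid 4T1 array. Of the 10 miRNAs named for 67NR, 8 lost their call without each of the 4 arrays in turn. The exceptions were miR-149, lost without compliant set 1 (adjusted p = 0.053), and miR-706, lost without compliant set 2 or rigid set 2. With slide as a block 4 passed, namely miR-149, miR-706, miR-466f-5p and miR-466c-5p, all of them among the 16.

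In 4T1 the largest rises were those of miR-218-2*, miR-805, miR-706, miR-301b and miR-214, and the largest falls those of miR-146a, miR-146b, miR-149, miR-615-3p and miR-99a. MiR-301b, of the miR-130 family, was at 7.18 and 7.30 in compliant and 7.57 and 7.56 in rigid 4T1. The rise of 0.32 ± 0.05 passed (limma adjusted p = 0.012). MiR-615-3p, from the Hoxc5 gene, was at 10.37 and 10.49 against 9.93 and 10.10, a fall of 0.42 ± 0.08 (adjusted p = 0.027) that did not pass with slide as a block (adjusted p = 0.53). Of the 10 miRNAs named, miR-146a, miR-149 and miR-218-2* passed without any 1 of the 12 arrays. The count of 12 became 7 without rigid set 1 and 4 without rigid set 2 of 4T1.

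In 4TO7 the largest differences after miR-205 did not pass. MiR-210, the main hypoxia-induced miRNA, was at 10.22 and 9.96 in compliant and 9.58 and 9.51 in rigid 4TO7, a difference of -0.54 ± 0.13 (limma adjusted p = 0.13). In 4T1 its values 9.51 and 9.60 against 9.49 and 9.17 also lay lower in rigid culture, and the 3-line mean of -0.30 ± 0.07 was just outside the threshold (adjusted p = 0.053). MiR-16 and miR-195, which share a seed directed at cell cycle genes, were at 0.44 ± 0.11 and 0.37 ± 0.10 in 4TO7 (adjusted p = 0.18 and 0.22). In 67NR they were at -0.23 and -0.13. The 4TO7 count was 4 without either rigid 67NR array and 5 in the 24-array fit.

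The same contrast was then taken from the 12 TGF-beta arrays, which share no array with the inhibitor set. There 23 of 353 miRNAs passed (6.52%), 11 higher (3.12%) and 12 lower (3.4%), or 11 higher and 21 lower in the authors' deposited table. This count was 10 to 13 without compliant 67NR set 1 or set 2, rigid 67NR set 2, compliant 4TO7 set 1 or rigid 4T1 set 2, each of the TGF-beta arrays. Across 350 miRNAs tested in both, the 3-line rigidity differences correlated at r = 0.72 (Spearman's rho 0.65), and at r = 0.70 over the 282 detected on all arrays. By line r was 0.61 in 67NR, 0.42 in 4TO7 and 0.51 in 4T1. The 2 sets share the normalization and the slides, and rigid and compliant arrays lay on different slides in part, so what slide contributes to these correlations was not tested. Of the 18 miRNAs called with the inhibitor, 16 were tested with TGF-beta and 15 had the same sign; among all 350 the sign was shared by 73.7%.

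Called in the same direction in both sets were miR-146a, miR-146b, miR-149, miR-181b, miR-706, miR-708, miR-805 and miR-9, 8 miRNAs or 44.4% of the 18 and 34.8% of the 23. MiR-149 differed by -0.31 ± 0.03 with TGF-beta (limma adjusted p = 0.00019), beside -0.27 with the inhibitor. In the TGF-beta arrays of 4T1 it was at 8.37 and 8.28 in compliant and 7.79 and 7.74 in rigid culture, again with no overlap. MiR-146a in the same cultures was at 9.42 and 9.24 against 8.34 and 8.35, a 4T1 difference of -0.98 beside -0.62 with the inhibitor. MiR-146b differed by -0.88 in 4T1 with TGF-beta beside -0.44 with the inhibitor. MiR-9 differed by -0.21 ± 0.03 over 3 lines (adjusted p = 0.0029), with -0.23, -0.31 and -0.10 in 67NR, 4TO7 and 4T1. MiR-706 rose by 0.36 ± 0.04 (adjusted p = 0.00046). MiR-99a did not pass with TGF-beta, at -0.12 ± 0.03 (adjusted p = 0.069).

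**Figure D3:**
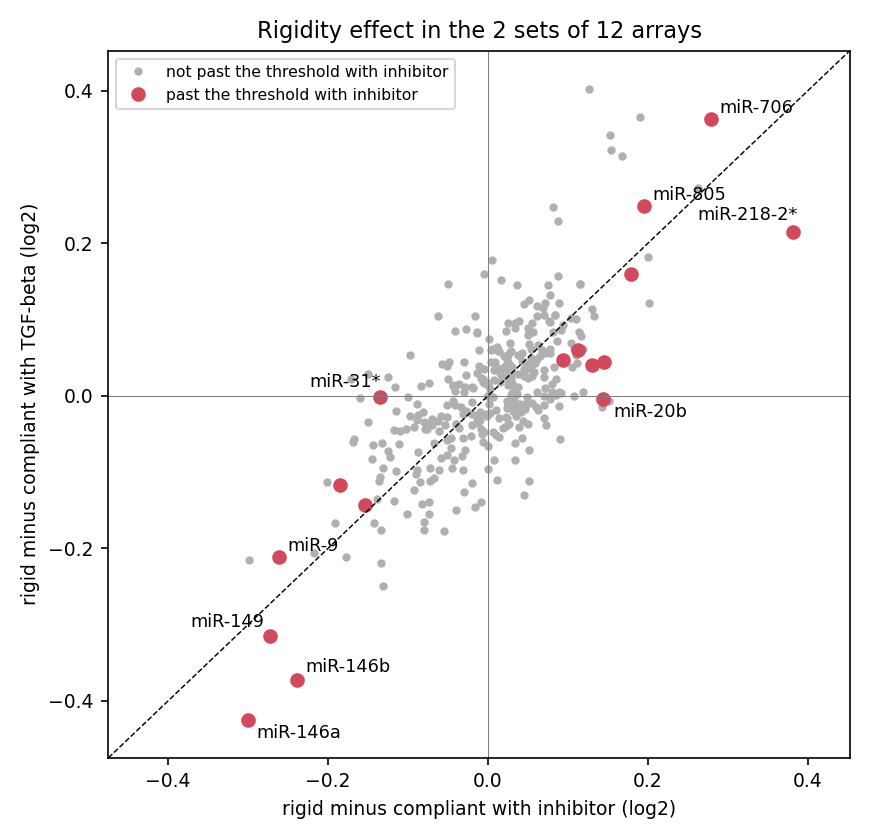
Rigid minus compliant difference in log2 relative intensity, mean of 3 lines, on the 12 inhibitor arrays (horizontal) and the 12 TGF-beta arrays (vertical) for 350 miRNAs; red points passed the test with the inhibitor and the dashed line marks equal differences. MiR-149, miR-146a, miR-146b and miR-9 lie at the lower left and miR-706 at the upper right, while miR-20b and miR-31* lie near 0 on the vertical axis.

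Whether the rigidity effect itself depended on the treatment was tested over all 24 arrays. No miRNA of 365 passed (percentage called 0), with a smallest adjusted p of 0.59 in limma and 22 at an unadjusted p under 0.05. That does not show the effects to be equal. The 95% interval of the difference, TGF-beta minus inhibitor, had a median width of 0.13 to either side. For miR-149 the difference was -0.04 (95% interval -0.10 to 0.02), for miR-9 0.05 (-0.07 to 0.17), for miR-706 0.08 (-0.02 to 0.19) and for miR-99a 0.07 (-0.02 to 0.16). For miR-146a it was -0.12 (-0.26 to 0.01) and for miR-146b -0.13 (-0.25 to -0.01). Both averages take in 67NR and 4TO7, where on the inhibitor arrays miR-146a was not detected and miR-146b was detected on 1 array. The treatment difference within 4T1 alone was not tested. Of the 18 called miRNAs, 12 had an unadjusted interval that held 0 and 6 did not, namely miR-146b, miR-31*, miR-377, miR-330*, miR-20b and miR-742. The 18 were chosen on the inhibitor values that also enter this difference, which pulls it toward the sign opposite to the called effect. The intervals of these miRNAs are therefore no independent evidence that their effect depends on the treatment. MiR-20b was at 0.14 with the inhibitor and -0.00 with TGF-beta, a difference of -0.15 (-0.26 to -0.04; adjusted p = 0.67), and passed without rigid 4T1 set 2 of the TGF-beta arrays (adjusted p = 0.022). The other differences with the smallest p were -0.19 for miR-377, -0.18 for miR-500, 0.18 for miR-140*, -0.12 for miR-292-3p and 0.17 for miR-132, none past the threshold.

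Groups of related miRNAs are given by counts of members past the threshold and by their median, beside 10 higher, 8 lower and a median of 0.01 over all 362 tested, of which 159 lay below 0; after median scaling on the probes present on every array that median was -0.00, with 189 below 0. Of 12 miRNAs linked in the literature to matrix stiffness, none passed in the 3-line mean, and their median was 0.03. Among them were miR-21, a widely raised oncogenic miRNA, at 0.10 ± 0.07, miR-18a, of the miR-17 cluster, at -0.04 ± 0.04, and the collagen-repressing miR-29a at -0.00 ± 0.05. The miR-29 family had no member past the threshold. All 4 members of the miR-130 family lay above 0 with a median of 0.06, none of them called over 3 lines. All 9 members of the let-7 family, which restrain growth and pluripotency genes, lay below 0 with a median of -0.07, and none passed; the lowest was let-7b at -0.12 ± 0.06 (limma adjusted p = 0.28). The epithelial miR-183 cluster was below 0 in its 3 members, with miR-96 at -0.19 ± 0.05 and miR-182 at -0.13 ± 0.04 (both adjusted p = 0.086). MiR-183 and miR-96 were not detected on any 67NR array, and the cluster's median was -0.26 in 67NR, -0.06 in 4TO7 and -0.03 in 4T1. MiR-221 and miR-222, repressors of the cell cycle inhibitor p27, were at -0.18 ± 0.08 and -0.08 ± 0.04 and did not pass. The signs given here for whole groups were the same under the 3 other scalings. Of 8 tested miRNAs with links to TGF-beta, miR-377, detected in rigid 67NR alone, was higher and miR-181b lower, and of 5 linked to inflammation miR-146a and miR-146b were lower, while miR-155 was at 0.14 ± 0.04 (adjusted p = 0.10).

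**Figure D4:**
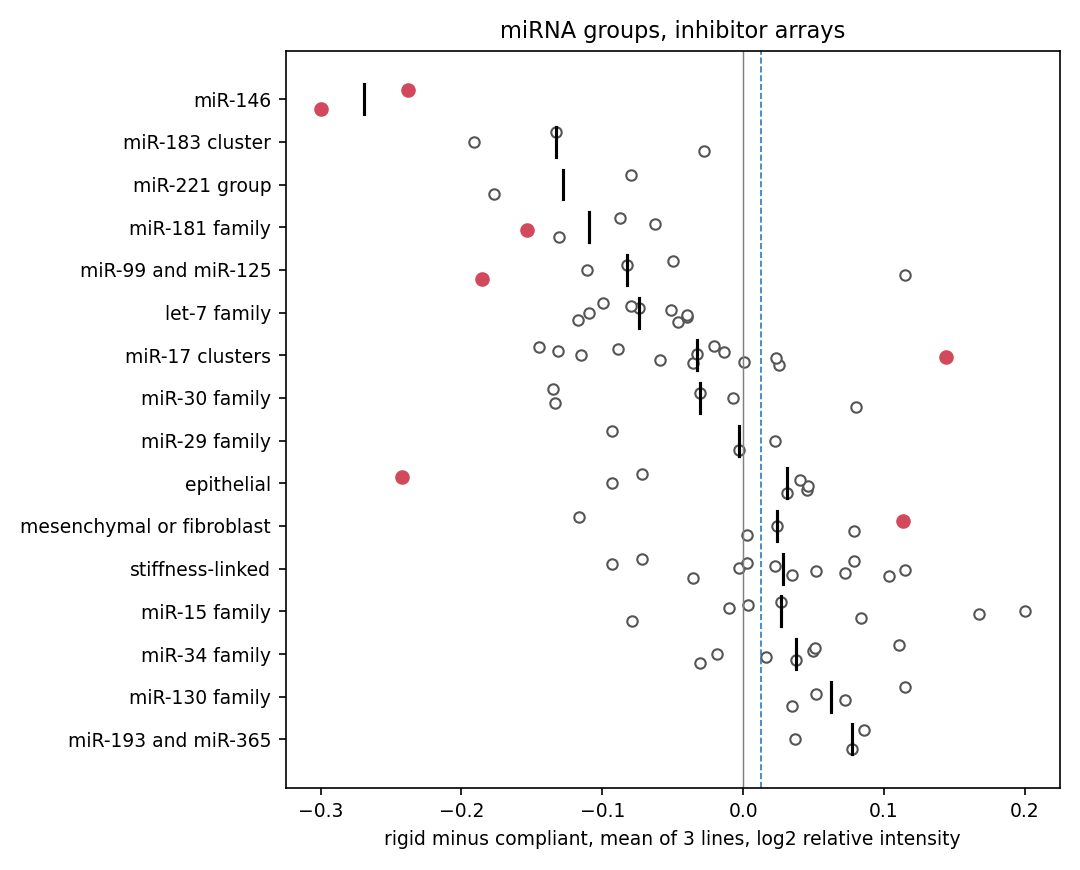
Rigid minus compliant difference on the inhibitor arrays, mean of 3 lines in log2 relative intensity, for the tested members of 16 miRNA groups. Filled red points passed an adjusted p of 0.05, open points did not, black bars are group medians and the dashed line is the median of all 362 tested miRNAs (0.01); the 9 let-7 members all lie below 0 with none filled.

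Markers checked the identity of the cultures. MiR-141 was detected on all 12 arrays, and the epithelial miR-200b, miR-200c and miR-429 on the 4 arrays of 4T1 and no others. Of the 7 epithelial markers 2 to 6 were detected per array. Their summed level was 9.30 to 10.9 on the log2 scale in rigid and 9.42 to 10.9 in compliant cultures. Of the 7, 1, miR-205, detected in compliant 4TO7 alone, was lower, beside 8 of 362 among all tested. Of 5 mesenchymal markers 3 to 5 were detected per array, with summed levels of 13.0 to 13.8 in rigid and 12.8 to 13.8 in compliant cultures. Of the 5, 1, miR-214, was higher, beside 10 of 362 among all tested. Its values in 67NR were set by the normalization, and it did not pass under median scaling or with slide as a block. Among markers of cells that such cultures need not hold, the endothelial miR-126-3p and miR-126-5p were not detected on any array. The blood and immune miR-144, miR-223, miR-150, miR-142-3p and miR-142-5p were not detected either, and only miR-451 of that list was. Of the muscle list miR-1, miR-208a and miR-499 were undetected, and summed levels were 8.99 to 9.19 in rigid and 8.90 to 9.46 in compliant cultures; miR-206 was detected on the 4 arrays of 67NR alone, the line in which miR-208b, detected on all 12, was lower. Of the neural and liver list miR-124 and miR-137 were undetected, while miR-9, called lower above, and miR-122 were detected on all 12 arrays and miR-128 on 5, with summed levels of 9.29 to 9.79 in rigid and 9.33 to 9.92 in compliant cultures. Any part of other cells in these differences was not tested further.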

How the data were processed

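Per the file headers, the deposited intensity is a background-corrected DY649 sample signal relative to a synthetic DY547 reference on a linear scale, with a detection p-value and a fail code per spot. The authors' deposited table holds log2 intensity for 338 probes and served as an alternative. Scanner software was not stated in these sources. Log2 intensities of 558 miRNA probes were quantile normalized over 24 arrays with limma 3.58.1 (R 4.3.3). Probes detected (p under 0.05) on both arrays of a group, with a fail code on fewer than 6 of 12 arrays, were kept. Group means were fitted by lmFit to the 12 inhibitor arrays (6 residual degrees of freedom), with contrasts averaged over lines, eBayes with a trend, two-sided tests and Benjamini-Hochberg adjustment over all tested probes. TGF-beta arrays were fitted alike, and the treatment difference on 24 arrays. "At least" folds are given where both arrays of the bright group were detected. They compare the bright group with the higher of the dim probe and the lowest detected level, which was the dim probe in the cases given. Alternatives covered scaling, filters, fail codes, slide, set number, model and each array left out.

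Named were called miRNAs with 1 sign in all lines (up to 10 per direction), the 5 largest non-overlapping calls per direction in a line, the 6 smallest p of each difference, and list members as examples, smallest p first; where fewer than 3 passed, the 5 largest with an unadjusted p under 0.05. Probes carrying several names (7 tested) were left unnamed. The members and lists were chosen with earlier results of these data known. The code of the fit was run on simulated data with independent noise, the same effect in all lines and no slide effect. That run therefore cannot speak to slide or to differences between lines in these data. Deviations of same-numbered sets of a line correlated at r = -0.01 in 67NR, -0.12 in 4TO7 and 0.23 in 4T1. No pairing was used in the main fit, and counts with a replicate block are given below.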

Additional observations from a re-analysis of the deposited data

Results flagged for a closer look

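The rigidity effect on inhibitor arrays differed between lines for 4 miRNAs by limma's F test. MiR-709 (adjusted p = 2.7e-05) was at 0.28 in 4T1 and at 0 in 4TO7, with values fixed by rank; the difference did not pass under median scaling (adjusted p = 0.79), in the authors' deposited table (adjusted p = 0.81), in either 24-array fit or without the 3 probes of equal value on all arrays (adjusted p = 0.051). MiR-205 (adjusted p = 0.0037) was at -0.79 in 4TO7, 0.04 in 67NR and 0.02 in 4T1. It was detected in compliant 4TO7 alone and entered the test only through that group. MiR-542-3p (adjusted p = 0.019) was at -0.26 in 67NR, -0.13 in 4TO7 and 0.19 in 4T1, and did not pass under median scaling (adjusted p = 0.15), in the authors' deposited table (adjusted p = 0.053), with slide as a block (adjusted p = 0.12), with the replicate block (adjusted p = 0.055), or without rigid 67NR set 1 (adjusted p = 0.057) or rigid 4T1 set 2 (adjusted p = 0.10). MiR-466c-5p (adjusted p = 0.032) was at 0.34 in 67NR, -0.06 in 4TO7 and -0.09 in 4T1, and failed in 10 of the 12 fits without 1 array (highest adjusted p = 0.14).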

How the results depend on the processing

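No named miRNA changed its direction; the balance of higher and lower calls and the sign of the median over all tested miRNAs (0.01, or -0.00 after median scaling on the probes present on every array) moved with the scaling. The 18 calls over 3 lines became 6 with slide as a fixed block, 6 in an additive model, 12 with the replicate block, and 11 to 23 without 1 array. For 67NR, 16 became 10 over probes detected on all arrays, 29 in the 24-array fit, 4 with the slide block, 2 with the replicate block, 25 without the 3 equal-value probes (an alternative chosen after seeing the data) and 1 to 18 without 1 array. For 4TO7, 1 became 0 in the authors' deposited table, 0 over probes detected on all arrays (neither holds miR-205), 5 in the 24-array fit and 1 to 4 without 1 array. For 4T1, 12 became 4 with the replicate block and 4 to 16 without 1 array. The F test's 4 became 16 and 20 under the median scalings, 11 in the authors' deposited table, 9 in the 24-array fit and 2 to 9 without 1 array. With TGF-beta, 23 became 14 over probes detected on all arrays, 14 with the slide block and 10 to 24 without 1 array. The treatment difference stayed at 0, or 0 to 1 without 1 array. The cause was otherwise not tested. Where an array was left out, its lone partner was assumed to vary like other groups. Slide could not be fitted as a fixed block on the 12 inhibitor arrays alone. For single named miRNAs, 1306 alternatives left the outcome as it was, 255 lost a call and 16 gained one. The 1306 include named results that did not pass in the main fit and did not pass in the alternative either. Levels near background limit miR-377, miR-205, miR-149 and the miR-146 pair outside the groups that detected them.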

Other observations

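A set of probes named miR-297, miR-466, miR-467 or miR-669, largely from an intron of Sfmbt2, was singled out after its values were seen and is given as values without a test of the set. Of 16 tested, 13 lay above 0 in 67NR with the inhibitor, where 5 passed as higher (median 0.33), beside 158 of 362 above 0, 9 of 362 higher (2.49%) and a median of -0.02 among all miRNAs tested in 67NR. Above 0 were 2 of the 16 in 4TO7 (median -0.11) and 8 in 4T1 (median -0.00). With TGF-beta the medians of the 14 tested were 0.18, 0.02 and 0.14 in 67NR, 4TO7 and 4T1. The 5 calls in 67NR became 0 without either compliant 67NR array or rigid set 2, 2 without rigid set 1, 2 with slide as a fixed block, 1 with the replicate block, 4 with slide as a random block, 4 of 21 with no filter on detection and 2 of 7 over probes detected on all arrays. They became 8 and 10 under the median scalings, 8 of 14 in the authors' deposited table, 9 in the 24-array fit and 7 without the equal-value probes.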
